A study of Mus musculus with 2 samples.

Results

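The 9 genes Foxo3, Foxo1, Tsc1, Tsc2, Mtor, Rptor, Rictor, Akt1 and Pik3r1 encode the core of the PI3K, mTOR and Foxo pathway that sets whether an oocyte rests or grows. They were chosen by symbol among the 21018 genes present in the count tables of both libraries, and all 9 were found. The data are single-cell RNA counts of mouse ovary at postnatal day 3, from 2 libraries of the 10x 3′ assay with 1 library per group. Both groups were C57BL and both had mothers treated with melatonin (MLT) from E16.5 of gestation to postnatal day 3. Mothers of the DEHP_MLT group were gavaged with DEHP as well, a plasticizer of the phthalate class, and those of the MLT group had DMSO in its place. No group without melatonin is among these libraries, and the sources used here do not give how many pups or ovaries went into each library.

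In an oocyte, Kit or an insulin-type receptor recruits PI3-kinase, whose regulatory subunit p85 is encoded by Pik3r1. Its lipid product activates Akt, which phosphorylates Foxo factors and so moves them out of the nucleus, and which also inhibits the Tsc1 and Tsc2 complex that holds back the mTOR kinase. Foxo3 is known for keeping primordial oocytes dormant in mice, while loss of Tsc1 or Tsc2 in oocytes awakens the whole pool. Much of this control acts on phosphorylation and on protein location, which RNA counts do not measure.

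The sample titled MLT is attached to a table whose own name reads DEHP_MLT, and the reverse holds for the other sample. Titles were followed, and the group field of the labels goes with them, but every direction between libraries would reverse if the table names were correct. Comparisons of cell types within a library do not depend on this. With 1 library per group no test between groups was possible, and cells were not treated as replicates.

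Levels are UMIs (unique molecular identifiers) of a gene summed over the cells of a type, per 10000 UMIs of those cells. Each carries an exact Poisson 95% interval, which covers counting error only. A gene was called different when the levels were at least 1.5-fold apart, with 0.01 per 10000 added to both, and their intervals did not overlap. Levels of different genes are not compared, since a 3′ count also depends on the transcript. The MLT-labelled library kept 5199 of 5277 barcodes, and the DEHP_MLT-labelled library kept 4819 of 4819. Before any filter, their tables held 80657690 and 117355739 UMIs. The libraries shared 4 barcodes.

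Cells were assigned by marker genes. The germ gate (Dazl, Sycp3, Figla) held 243 cells of the MLT-labelled library and 640 of the DEHP_MLT-labelled library. The granulosa gate (Fst, Hsd3b1, Inha, Aard) held 686 and 321 cells, and the stroma gate (Col1a1, Col1a2, Col3a1, Dcn) held 2531 and 2000. Depth was uneven in germ cells, with a median of 8697 UMIs per cell in the MLT-labelled library and 63175 in the DEHP_MLT-labelled library. It was closer in granulosa cells (15699 and 20431) and in stroma cells (10460 and 11340).

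Markers that took no part in the gating were highest in the germ and stroma gates they belong to. Ddx4, Sycp1, Nobox and Zp3 summed to 10.1 and 9.61 per 10000 in germ cells of the libraries labelled MLT and DEHP_MLT, and the granulosa cells held 6.72% and 4.75% of that. Pdgfra, Tcf21, Lum and Nr2f2 summed to 10.3 in stroma of both libraries, of which germ cells held 2.93% and 2.67%. The granulosa check (Foxl2, Wnt4, Fshr, Amhr2, Kitl) was weaker. Its 5 markers summed to 15.2 and 13.8 in the granulosa gate, and stroma held 46.6% and 57.4% of that and surface epithelium 56.9% and 53.8%. Foxl2 stood at 5.17 and 5.63 in the granulosa gate against 1.79 and 1.59 in stroma, but Wnt4 stood higher in stroma (4.14 and 5.67) than in the granulosa gate (1.82 and 1.61). Fshr, the receptor of follicle-stimulating hormone, was near 0 in the granulosa gate (0.0154 and 0.00841). Kitl (4.66 and 3.64 against 0.883 and 0.508) and Amhr2 (3.58 and 2.90 against 0.286 and 0.159) were higher there than in stroma, though Amhr2 stood higher still in surface epithelium (4.11 and 3.63).

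Promoter letters were taken for all 9 genes from RefSeq (GRCm38.p6), as the 190 bases from 250 to 61 bases before an annotated start. The following 3 windows are shown because these genes were highest in 3 different gates, namely in germ cells (Foxo3), in endothelial cells (Foxo1) and in stroma (Pik3r1, first listed start). They are written 5′ to 3′ on the gene's strand, and capitals mark the GC box GGGCGG on either strand, since no FOXO core TGTTTAC lies in these 3 windows. Foxo3 is at chr10:42276756-42276945 on the minus strand, Foxo1 at chr3:52268087-52268276 on the plus strand and Pik3r1 at chr13:101768278-101768467 on the minus strand.
Foxo3: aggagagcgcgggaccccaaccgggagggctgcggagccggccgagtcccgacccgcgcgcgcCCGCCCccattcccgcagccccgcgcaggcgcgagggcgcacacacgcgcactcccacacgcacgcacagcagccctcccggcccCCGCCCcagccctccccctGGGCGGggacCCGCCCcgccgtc
Foxo1: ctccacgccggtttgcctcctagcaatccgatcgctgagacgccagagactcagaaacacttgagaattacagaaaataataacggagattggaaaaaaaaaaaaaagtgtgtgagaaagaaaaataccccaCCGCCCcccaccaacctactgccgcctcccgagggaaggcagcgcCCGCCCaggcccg
Pik3r1: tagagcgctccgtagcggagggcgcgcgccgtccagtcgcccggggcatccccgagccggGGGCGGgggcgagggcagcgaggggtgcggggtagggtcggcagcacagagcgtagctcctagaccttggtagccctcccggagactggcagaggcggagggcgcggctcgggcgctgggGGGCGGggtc

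The Foxo3 window held 4 GC boxes and was 81.6% G or C, the Foxo1 window held 2 and was 53.2%, and the Pik3r1 window held 2 and was 76.8%. Over all 32851 such windows the median was 51.6% G or C, 22.8% held a GC box and 2.49% held the FOXO core. Among the 9 genes, the FOXO core was found once, in the window of the first Akt1 start. A match of letters is a description and no evidence of binding.

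Foxo3, the dormancy factor, had its highest level per 10000 UMIs of a gate in germ cells in both libraries. Its germ level was 0.813 per 10000 (interval 0.755 to 0.873) in the MLT-labelled library and 0.988 (0.957 to 1.02) in the DEHP_MLT-labelled library. Stroma stood at 0.481 (0.455 to 0.508) and 0.512 (0.485 to 0.540), and granulosa cells at 0.329 (0.302 to 0.359) and 0.457 (0.415 to 0.502). Germ cells thus lay above both other types in each library, with no overlap of intervals. Germ over stroma was 1.68-fold and 1.91-fold, and germ over granulosa was 2.42-fold and 2.13-fold. Granulosa and stroma cells had overlapping intervals in the DEHP_MLT-labelled library and separate ones in the MLT-labelled library.

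Over all gates with at least 50 cells, the next highest Foxo3 level was in erythroid cells of the DEHP_MLT-labelled library, at 0.860 over 546 cells. The erythroid gate of the MLT-labelled library had only 32 cells and is not given. Endothelial cells (0.262 and 0.150), immune cells (0.301 and 0.261) and surface epithelium (0.191 and 0.291) had low levels whose intervals overlapped with those of their neighbours in the order. Haemoglobin and Alas2 counts in germ cells were 3.39 and 77.6 per 10000, at most 1.57% of the erythroid gate's level in any of the 3 main gates. In the erythroid gate labelled DEHP_MLT those genes took 5045 of every 10000 UMIs, which lowers the level of every other gene there. Levels without those UMIs were not computed, so the order of germ and erythroid cells for Foxo3 holds per total UMIs only.

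Foxo1, the paralog of Foxo3, had a different order. Endothelial cells were highest, at 1.07 per 10000 in the MLT-labelled library and 1.05 in the DEHP_MLT-labelled library, with intervals apart from every other gate. Granulosa cells stood at 0.673 (0.634 to 0.714) and 0.696 (0.644 to 0.751), germ cells at 0.467 (0.424 to 0.514) and 0.527 (0.505 to 0.550), and stroma at 0.399 (0.376 to 0.424) and 0.343 (0.321 to 0.366). The order granulosa, germ, stroma held in both libraries without overlap. Labelled MLT, however, the germ and stroma intervals nearly touched (0.42390 and 0.42388). With equal weight per cell, germ over stroma labelled MLT turned to log2 -0.045. Granulosa over stroma was log2 0.74 and 0.9998 and was called in both. Germ over granulosa was 0.70 and 0.76, short of the 1.5-fold limit, so Foxo1 and Foxo3 pointed opposite ways between germ and granulosa cells. Surface epithelium (0.199 and 0.223) and immune cells (0.221 and 0.149) were at the low end.

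**Figure D1:**
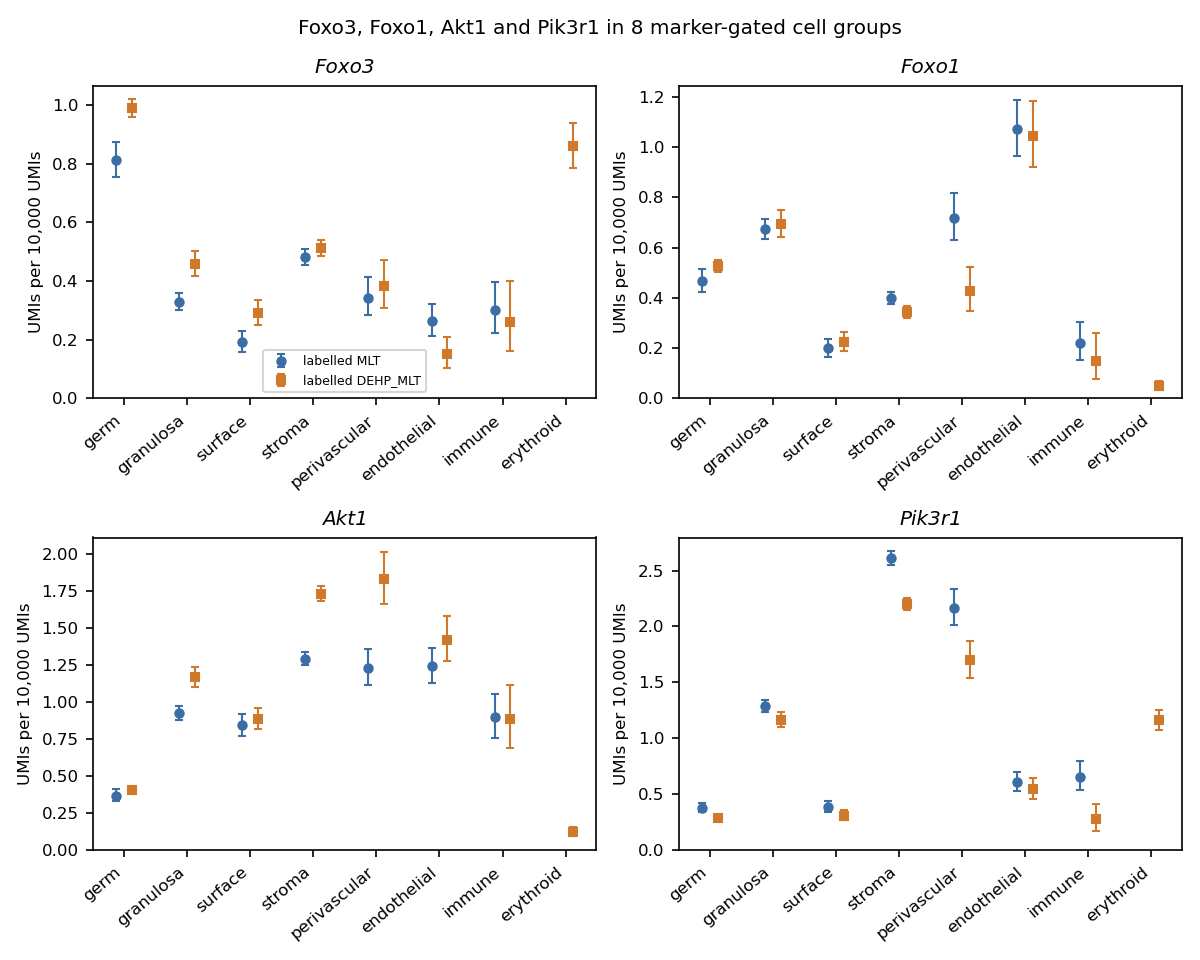
Levels of Foxo3, Foxo1, Akt1 and Pik3r1 in UMIs per 10000 UMIs (vertical axis) across 8 marker gates (horizontal axis), 1 point per library with exact Poisson 95% bars. Per total UMIs, Foxo3 peaks in germ cells, Foxo1 in endothelial cells, and Pik3r1 in stroma, while Akt1 is lower in germ cells than in granulosa and stroma cells. Haemoglobin genes and Alas2 take 5045 of every 10000 UMIs in the erythroid gate labelled DEHP_MLT, which lowers its other levels. The erythroid gate labelled MLT, with 32 cells, is not drawn.

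Pik3r1, the regulatory subunit that docks PI3-kinase to active receptors, had the widest spread of the 9 genes between germ cells and stroma. Stroma held 2.61 per 10000 (2.55 to 2.67) in the MLT-labelled library and 2.20 (2.14 to 2.26) in the DEHP_MLT-labelled library. Granulosa cells held 1.29 (1.23 to 1.34) and 1.16 (1.10 to 1.23), and germ cells 0.376 (0.337 to 0.418) and 0.285 (0.269 to 0.302). The 3 types were apart in each library and kept 1 order. The germ level was 0.147 and 0.133 of the stroma level, which is log2 -2.76 and -2.91. For comparison, the stroma check markers that took no part in the gating stood in germ cells at 2.93% and 2.67% of their stroma level. Cells that also passed the stroma gate had been left out, so such shares are partly set by the gating. The part of stroma RNA in the germ level of Pik3r1 was not tested. Perivascular cells followed stroma at 2.17 and 1.70, and endothelial cells had 0.607 and 0.546. Erythroid cells of the DEHP_MLT-labelled library had 1.16 (1.08 to 1.26), the same as granulosa cells. Haemoglobin genes and Alas2 took 5045 of every 10000 UMIs in that erythroid gate. The order of erythroid cells and stroma without those UMIs was not tested.

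Akt1, a kinase that acts on both Foxo factors and the Tsc complex, was also lowest in germ cells of the 3 types. Germ cells had 0.367 per 10000 (0.329 to 0.409) and 0.407 (0.388 to 0.427), granulosa cells 0.927 (0.880 to 0.975) and 1.17 (1.10 to 1.24), and stroma 1.29 (1.25 to 1.34) and 1.73 (1.68 to 1.78), for the libraries labelled MLT and DEHP_MLT. No intervals overlapped within a library. Germ over stroma was 0.290 and 0.240, and germ over granulosa was 0.403 and 0.354. Endothelial cells (1.24 and 1.42) and perivascular cells (1.23 and 1.83) lay near stroma, and erythroid cells of the DEHP_MLT-labelled library had 0.122.

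Tsc2, the GTPase-activating subunit that keeps Rheb inactive, was highest in germ cells of the 3 types. Germ cells had 0.477 (0.433 to 0.524) and 0.502 (0.480 to 0.524), granulosa cells 0.260 (0.236 to 0.286) and 0.326 (0.291 to 0.364), and stroma 0.243 (0.225 to 0.263) and 0.240 (0.222 to 0.260). Germ over stroma was 1.92-fold and 2.04-fold, and germ over granulosa was 1.80-fold and 1.52-fold, the last of which is barely over the limit. Tsc1, the scaffold that stabilises Tsc2, was more even. It stood at 0.307 and 0.297 in germ cells, 0.222 and 0.243 in granulosa cells and 0.216 and 0.227 in stroma, so its germ level was above both others with intervals apart, yet by less than 1.5-fold.

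Mtor, the kinase shared by both mTOR complexes, was lowest in stroma of the 3 types. Germ cells had 0.288 (0.255 to 0.326) and 0.251 (0.236 to 0.267), granulosa cells 0.257 (0.233 to 0.283) and 0.286 (0.253 to 0.322), and stroma 0.168 (0.153 to 0.184) and 0.129 (0.116 to 0.143). Germ and granulosa cells overlapped in both libraries. Immune cells were at 0.160 and 0.112, with intervals that overlapped with those of stroma. Germ over stroma was 1.68-fold and 1.87-fold, and granulosa over stroma was 1.503-fold and 2.13-fold, the former just over the limit.

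Rptor and Rictor, which define mTOR complex 1 and mTOR complex 2, had the flattest profiles over the 3 types, with Tsc1. Rptor stood at 0.262 and 0.229 in germ cells, 0.237 and 0.240 in granulosa cells and 0.186 and 0.159 in stroma. Rictor stood at 0.539 and 0.440 in germ cells, 0.568 and 0.493 in granulosa cells and 0.483 and 0.361 in stroma. Neither gene was called between any pair of the 3 types in both libraries. Over the gates with at least 50 cells, Rictor was highest in endothelial cells, at 0.721 and 0.617. Its interval there was apart from the next gate in the MLT-labelled library only.

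**Figure D2:**
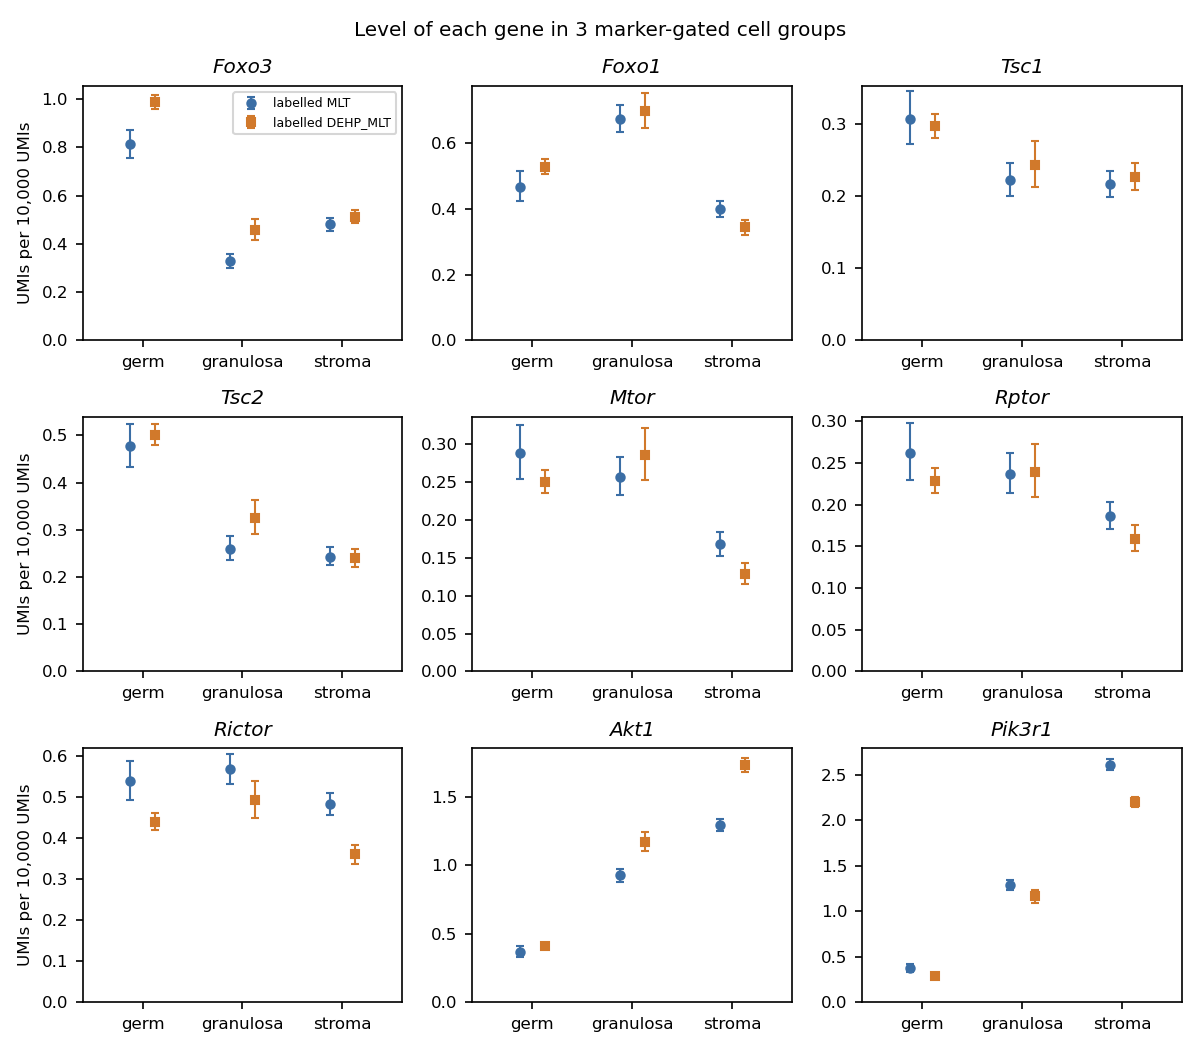
Levels of the 9 genes in UMIs per 10000 UMIs in the germ, granulosa and stroma gates, 1 point per library with exact Poisson 95% bars. Germ cells are highest for Foxo3 and Tsc2 and lowest for Akt1 and Pik3r1 in both libraries.

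Counted over the list, 5 of 9 genes were called the same way in both libraries between germ and stroma cells, 3 higher in germ cells (Foxo3, Tsc2, Mtor) and 2 lower (Akt1, Pik3r1), against a background of 62.6% of 14380 genes. Between germ and granulosa cells 4 of 9 were called, Foxo3 and Tsc2 higher and Akt1 and Pik3r1 lower, against 62.4%. Between granulosa and stroma cells 3 of 9 were called, Foxo1 and Mtor higher and Pik3r1 lower, against 33.1%. These shares are near or below the background, so the number of calls does not mark the list out. The median log2 of the 9 genes for germ over stroma was 0.47 in the MLT-labelled library and 0.50 in the DEHP_MLT-labelled library, against -0.04 and 0.01 over all genes. For germ over granulosa it was 0.14 and -0.16, against -0.12 and -0.11. For granulosa over stroma it was 0.09 and 0.42, against 0.06 and 0.07.

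The calls for Akt1 and Pik3r1 between germ and stroma cells, and for Pik3r1 between germ and granulosa cells, held in both libraries under all 13 alternative settings. Those for Foxo3, for Tsc2 between germ and stroma cells and for Akt1 between germ and granulosa cells were lost only when every cell was thinned to 2000 UMIs, with Foxo3 in germ over stroma at 0.57 on the log2 scale in the MLT-labelled library. The Mtor call between granulosa and stroma cells was lost in 6 settings, and its sign turned to -0.07 in the DEHP_MLT-labelled library when thinned. The Pik3r1 call there was lost in cells with at least 20000 UMIs (log2 -0.45 in the MLT-labelled library). The Foxo1 call there was lost in 3 settings, the Mtor call between germ and stroma cells in 3 and the Tsc2 call between germ and granulosa cells in 4.

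Between the libraries, none of the 9 genes was called in germ cells, where 6.02% of 14772 genes were called. None was called in granulosa cells, where 8.04% of 13489 were, nor in stroma, where 10.7% of 14217 were. Thus 0 of 9 passed in each type, and the fold limit was not reached by any of them. In germ cells, whose depth differed most, thinning to 2000 UMIs per cell gave calls for Foxo3 (log2 0.75) and Pik3r1 (log2 -1.02), and equal weight per cell gave one for Pik3r1 (log2 -1.01). Shares of all genes called under those settings are not given here. The background calls of the main setting leaned to lower values in the DEHP_MLT-labelled library, with a median log2 over all genes of -0.08 in germ, -0.13 in granulosa and -0.14 in stroma cells. Against these, the medians of the 9 genes were -0.05, 0.12 and -0.21.

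Smaller differences, with intervals apart but under 1.5-fold, were seen for some of the genes. The share of all genes with intervals apart between libraries is not given here, so these differences cannot be set against a background. In germ cells Foxo3 was higher in the DEHP_MLT-labelled library (log2 0.28), and Rictor (-0.29) and Pik3r1 (-0.39) were lower. In granulosa cells Foxo3 (0.46), Tsc2 (0.31) and Akt1 (0.33) were higher and none was lower. In stroma Akt1 was higher (0.42), and Foxo1 (-0.21), Mtor (-0.35), Rictor (-0.41) and Pik3r1 (-0.24) were lower. The intervals carry counting error only, and the spread between libraries of 1 group is unknown.

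Foxo3 kept a positive sign and Rictor a negative sign in all 3 types under all 13 alternatives. Pik3r1 was lower in the DEHP_MLT-labelled library in all 3 types, except that its stroma value was 0.34 in cells with at least 20000 UMIs. Akt1 in germ cells turned negative with equal weight per cell and when thinned, as low as -0.61. Other features differed between the libraries in the same cells. MHC class II genes summed to 7.75 per 10000 in granulosa and 8.12 in stroma cells labelled MLT against 0.08 and 0.02 labelled DEHP_MLT, and to 1.19 and 0.08 in germ cells. No call and no sign of the 9 genes was changed by leaving out MHC class II cells, apart from the sign of Tsc2 in stroma, whose main value was -0.02. The part of germ cell depth in these differences was not tested beyond the thinned and depth-floor settings.

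**Figure D3:**
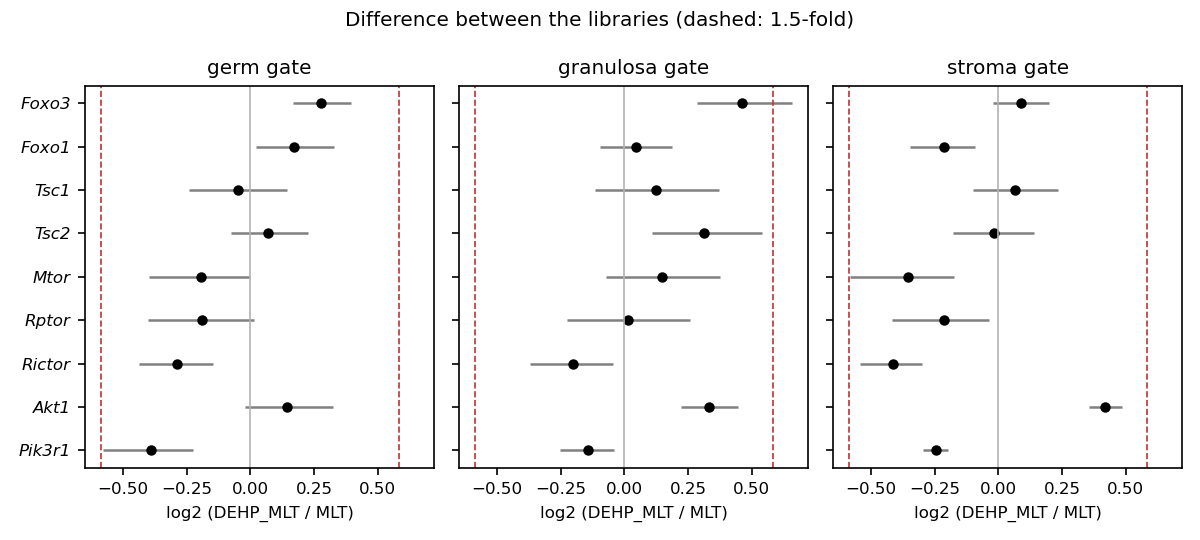
Log2 ratio of the level in the DEHP_MLT-labelled library over the MLT-labelled library for the 9 genes in germ, granulosa and stroma cells, with bars from the exact Poisson intervals. All points lie within the 1.5-fold limits, from -0.41 (Rictor, stroma) to 0.46 (Foxo3, granulosa).

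In the smaller gates 3 calls appeared, all lower in the DEHP_MLT-labelled library. Foxo3 was called in endothelial cells (0.262 and 0.150, log2 -0.77), 1 of 9 against 9.79% of all genes there. Foxo1 was called in perivascular cells (0.718 and 0.429, log2 -0.73), against 10.8%. Pik3r1 was called in immune cells (0.657 and 0.274, log2 -1.23), against 19% of all genes there. No gene of the 9 was called in surface epithelium, where 11.2% were. These gates held 145 and 89 endothelial, 283 and 187 perivascular, and 167 and 70 immune cells.

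To see how the genes went with oocyte growth, germ cells of each library were put into tertiles by the summed level of 12 growth genes, among them the zona genes and Gdf9. The tertiles are ranges of a score and not cell types. The growth genes ran from 12.9 per 10000 in the lowest to 61.7 in the highest tertile of the MLT-labelled library, and from 9.81 to 44.7 in the DEHP_MLT-labelled library. Pik3r1 was the only 1 of 9 genes called in both libraries, against 6.18% of 9913 genes. It stood at 0.271 in the lowest and 0.494 in the highest tertile labelled MLT (log2 0.85), and at 0.2002 and 0.331 labelled DEHP_MLT (log2 0.70). When the growth score was read after thinning, the difference labelled DEHP_MLT was 0.31 and the call was lost. Stroma markers, which go with high Pik3r1 in this tissue, were 2.21 and 2.003 per 10000 in the lowest and highest tertile labelled MLT and 2.001 and 2.19 labelled DEHP_MLT. Granulosa markers were 0.576 and 0.758, and 0.315 and 0.602, and their part in the Pik3r1 difference was not tested.

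Foxo3 did not separate the tertiles. It was 0.843 in the lowest and 0.720 in the highest tertile labelled MLT, and 1.001 and 0.961 labelled DEHP_MLT, with overlapping intervals. Rptor was lower in the highest tertile in both libraries, at 0.319 against 0.184 (log2 -0.76) and 0.270 against 0.193 (log2 -0.47), with intervals apart in both and the fold limit passed only in the MLT-labelled library. Rictor was lower likewise, at 0.638 against 0.456 and 0.4999 against 0.365, under 1.5-fold in both. Tsc2 was higher in the highest tertile labelled DEHP_MLT, at 0.436 against 0.583 (log2 0.41), with intervals apart but under 1.5-fold. Labelled MLT, its intervals overlapped (0.448 and 0.475). With the growth score read after thinning, the intervals labelled MLT overlapped for Rptor (log2 -0.19) and Rictor (log2 -0.31), and for Rptor they also overlapped with 1 UMI floor in both libraries (log2 -0.62). The median log2 of the 9 genes was -0.21 and -0.01, against -0.10 and -0.02 over all genes. The highest tertile was also the shallowest, with a median of 6955 UMIs per cell against 9841 in the lowest labelled MLT, and 50812 against 66866.5 labelled DEHP_MLT.

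**Figure D4:**
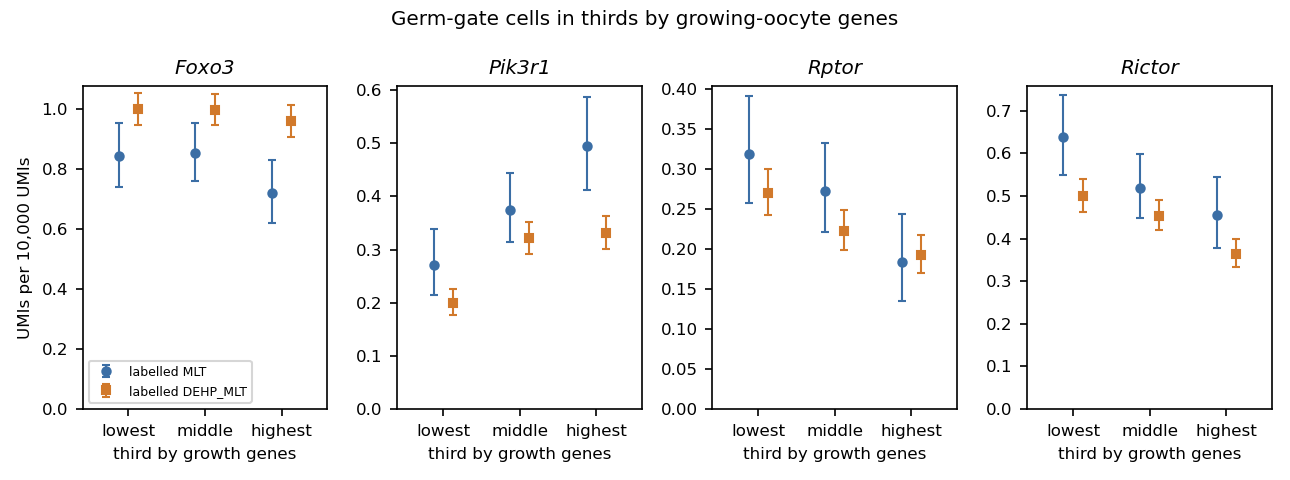
Levels in UMIs per 10000 UMIs across the lowest, middle and highest tertile of germ cells by growth gene level, 1 point per library with exact Poisson 95% bars. Pik3r1 is higher and Rptor and Rictor are lower in the highest tertile of both libraries, while Foxo3 intervals overlap.

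A list of 71 other pathway genes gives the surroundings of the 9. Between germ and stroma cells, 23 of 69 were called higher in germ cells and 11 lower, in both libraries, against the 62.6% of all genes called either way. The receptor Kit led, at log2 4.43 and 4.39, with Nprl2 (3.04 and 2.86), a subunit of the complex that restrains mTOR complex 1 when amino acids are short, Rhebl1 (2.77 and 3.21), a relative of Rheb, and Bnip3 (2.39 and 2.73), a mitophagy receptor, next in both libraries. Irs1, the adaptor that links insulin receptors to p85, was the lowest at -3.44 and -3.17. Fbxo32 (-2.52 and -2.17), Prr5l (-2.52 and -1.70) and Inpp4b (-2.16 and -2.37) came next in the MLT-labelled library. In the DEHP_MLT-labelled library Sgk1 (-2.09 and -2.48), Inpp4b and Sesn1 (-2.01 and -2.32) came next. Pdpk1, the kinase that activates Akt, was called higher in germ cells at 1.27 and 1.38.

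Against granulosa cells, 20 of 69 were called higher in germ cells and 18 lower, against 62.4% of all genes called either way. Kit (4.16 and 4.03), Nprl2 (3.17 and 3.36), Rhebl1 (3.04 and 2.57) and Bnip3 (2.40 and 2.45) led again. The ligand gene Kitl (-4.31 and -4.37), the cell cycle inhibitor Cdkn1b (-2.92 and -2.81), Rragd (-2.70 and -2.60) and Pik3ip1 (-2.60 and -3.12), an inhibitor of PI3-kinase, were the lowest. Granulosa over stroma had 14 of 69 higher and 5 lower, against 33.1% of all genes called either way. Cdkn1b (3.05 and 2.97), Rragb (3.04 and 1.81), Pik3r3 (2.71 and 2.70) and Kitl (2.39 and 2.82) were among the higher, and Inpp4b (-2.75 and -2.17) was the lowest in both libraries. Pik3r3 encodes another regulatory subunit of PI3-kinase, and its direction between granulosa and stroma cells was opposite to that of Pik3r1.

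Between libraries, 0 of 69 pathway genes were called higher and 5 lower in germ cells labelled DEHP_MLT, namely Cdkn1b (-0.80), Inpp4b (-0.71), Prkaa2 (-0.68), Kit (-0.60) and Sesn3 (-0.59). In granulosa cells 1 of 68 was higher, Foxo4 (1.09), and 4 were lower, namely Rragb (-1.40), Cdkn1b (-0.92), Rraga (-0.71) and Pik3c3 (-0.63). In stroma 0 of 69 were higher and 7 lower, with Cdkn1b (-0.83), Fbxo32 (-0.79) and Kitl (-0.78) among them. The shares called either way over all genes were 6.02%, 8.04% and 10.7%, and in germ cells these were 675 lower and 214 higher, so neither the number nor the direction of the calls marks the list out. The list medians were -0.05, -0.06 and -0.12, against -0.08, -0.13 and -0.14 over all genes.

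Cdkn1b, a cell cycle inhibitor known to hold back primordial follicles and a known target of Foxo factors, was the 1 pathway gene called in all 3 types. The share of all genes called in all 3 types is not given here. Calls over all genes also leaned lower, with 943 lower and 141 higher in granulosa cells and 1309 and 211 in stroma. Without the share over all 3 types, the Cdkn1b calls cannot be set against a background. The Cdkn1b germ level was 0.728 per 10000 labelled MLT and 0.414 labelled DEHP_MLT, its granulosa level 5.59 and 2.96, and its stroma level 0.668 and 0.370. Kit was 2.43 and 1.60 in germ cells, and Kitl was 4.66 and 3.64 in granulosa cells. Rheb, the GTPase that switches mTOR complex 1 on, was 1.42 and 1.28 in germ cells, 1.42 and 1.14 in granulosa cells and 1.16 and 1.02 in stroma, with no call between libraries. Pdpk1 was 0.913 and 0.963 in germ cells, also without a call. Rps6, a ribosomal protein whose phosphorylation reports mTOR activity, was 18.5 and 19.9 in germ cells, and this count is uncertain because the gene has near-identical copies.

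The genes most like each of the 9 were sought by the Pearson correlation of log2 levels (scaled to counts per 1e6 UMIs, plus 1) over 15 points, each 1 gate in 1 library, among 15367 genes. The points share libraries and depth, so this is a description with no test. They include the erythroid gate labelled DEHP_MLT, whose levels are lowered by haemoglobin UMIs, and its part was not tested. Abcb6 (0.92), Cmc4 and Spire1 (0.86 each) were most like Foxo3, and Celf1, Stx6 and Ralgps2 (all 0.94) most like Foxo1. Rtl8b (0.98) came first for Akt1, Lysmd3 (0.95) for Pik3r1, Actr8 (0.97) for Tsc2, Prss36 for Tsc1, Prkag2 (0.94), a regulatory subunit of the energy sensor AMPK, for Mtor, Washc5 (0.97) for Rptor and Rc3h1 (0.93) for Rictor.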

How the data were processed

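The authors deposited 1 table of raw UMI counts per library, whole numbers per gene symbol and barcode with no normalization. Cell Ranger, with no version given, Seurat 4.2.0 and the build mm9 are named, per the submitters' processing notes. Of the symbols, 98.2% were found in GENCODE vM21. That annotation is of another build, and no coordinates come from the files.

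The cell filter required a minimum of 500 detected genes and no more than 20% mitochondrial UMIs. A cell passed a gate when its summed markers per 10000 UMIs reached 0.2 of the 97th percentile over both libraries, with at least 2 markers seen. Cells passing more than 1 of 8 gates (644 and 611) were left out, apart from perivascular cells that also passed stroma. No doublet caller was run, so doublets of 1 type may remain. Gene sums were compared for genes with at least 20 UMIs, and the call rule was tested on simulated data, where it recovered 94% of 200 genes changed 2-fold in germ cells among 14799 genes, 90% in granulosa cells among 13391 and 89.5% in stroma cells among 14085. The simulated counts carried Poisson error only, and the changed genes had at least 20 expected UMIs. Spread between libraries or cells was not simulated, so recovery in the real data is not known from this. All 9 genes are described, and of the 71 other pathway genes those called in a comparison (at most 4 from each end in a library) and a fixed few (Pdpk1, Rheb, Rps6, Cdkn1b, Kit and Kitl among them). Some genes of that list are counted but not reported here. The most alike were the top 3 per gene. The members and lists were chosen with earlier results of these data known. The 13 alternatives varied the gates, weighting, depth, centring, pseudocount and count minimum. Computation used pandas 2.3.3, scipy 1.17.1 and numpy 2.4.6 in Python 3.11.15, with matplotlib 3.10.9 for plots.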

Additional observations from a re-analysis of the deposited data

How the results depend on the processing

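Of 13 alternatives, 12 were planned and 1, cells with at least 20000 UMIs, was chosen after seeing the data. No paired analysis was possible because each group has 1 library. Thinned to 2000 UMIs per cell, which widens intervals by construction, the genes called between libraries were 2 in germ cells (Foxo3 and Pik3r1) and 1 in stroma (Rptor), the median log2 was 0.16 in germ and 0.48 in granulosa cells, and the genes called in both libraries were 2 for germ over stroma and 1 for germ over granulosa. Mtor in granulosa over stroma labelled DEHP_MLT then turned to -0.069 from 1.09. Equal weight per cell called 1 gene in germ cells (Pik3r1). Centring on all genes called 1 gene in granulosa cells (Foxo3, log2 0.59) and moved the stroma median to -0.079. With gates exclusive among 3 types only, the granulosa median was -0.066 and 1 gene was called for granulosa over stroma. Cells with at least 20000 UMIs gave a stroma median of 0.19. Reading the growth score after thinning left 0 genes called in both libraries between tertiles, with Pik3r1 still called in the one labelled MLT (log2 0.82). Shares and medians over all genes under these alternatives are not given here, so their calls and medians cannot be set against a background. The causes were not tested. Only 135 of 243 germ cells labelled MLT reached 6923 UMIs, the lowest depth of the other library.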

Other observations

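Across the 15 gate-by-library points, pairs among the 9 genes varied together to different degrees. Tsc2 and Rptor had a Pearson r of 0.83, Foxo1 and Mtor 0.82 and Foxo1 and Rictor 0.78, while Foxo3 and Akt1 had the lowest value, -0.61. The points share libraries and depth, so these values are a description. The erythroid point labelled DEHP_MLT, rich in haemoglobin UMIs, was the lowest for Foxo1 (0.049), Tsc2 (0.087), Mtor (0.0996) and Rptor (0.037). Its part in these values was not tested.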
